A study of Mus musculus with 6 samples.

Results

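The 44 genes described here encode assembly factors of the mitochondrial respiratory chain, the proteins that help to build the chain without remaining part of it. They were chosen by gene name from the 33971 genes of the deposited table, and all 44 were found there once. By the complex they serve, 14 belong to complex I, 4 to complex II, 6 to complex III, 18 to complex IV and 2 to complex V. Their RNA was measured in articular cartilage of wildtype mice, with 3 libraries from animals aged 2 months and 3 from animals aged 18 months. The labels give tissue and genotype (WT), and the study's methods speak of male mice. Nothing in the labels says whether a library held 1 animal or several, so p-values measure only the spread between these libraries. The comparison of the ages addressed which genes change in articular cartilage during aging.

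The respiratory chain passes electrons through complexes I to IV to oxygen, and complex V, the ATP synthase, uses the resulting proton gradient to make ATP. Each complex joins subunits encoded in the nucleus with some encoded in mitochondrial DNA, except complex II, which is nuclear throughout, and complexes I to IV need flavin, heme, copper or iron-sulfur groups put in at the right step. Assembly factors hold unfinished intermediates together, deliver these groups, or guide the translation and membrane insertion of mitochondrially encoded subunits. Inherited loss of many of them causes mitochondrial disease, since the subunits alone do not form a working complex. Articular chondrocytes live in tissue without blood vessels and rely strongly on glycolysis.

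The libraries held between 48171507 and 59085179 counts. The labelled tissue was checked by marker genes, and the ages differed in more than the genes described here. A list of 14 chondrocyte markers took 3.83% to 6.46% of the counts at 2 months and 0.0591% to 0.147% at 18 months, and in 18-month replicate 3 the cartilage matrix genes Matn1 and Matn3 had 0 counts. A list of 14 neutrophil markers took 0.00172% to 0.561% at 2 months and 4.28% to 4.6% at 18 months, and 11 erythroid markers took 0.0248% to 0.667% and 2.73% to 3.6%. Macrophage markers took 0.00121% to 0.038% and 0.0805% to 0.0813%, and 8 proliferation genes 0.00224% to 0.0675% and 0.212% to 0.235%. Skeletal muscle markers took 0.00857% to 0.0163% and 0.000718% to 0.00083%, adipocyte markers 0.00267% to 0.00702% and 0.0116% to 0.0164%, osteoblast markers 0.398% to 1.63% and 0.323% to 0.328%, and B lymphocyte markers 0.00103% to 0.0282% and 0.0189% to 0.0218%. The adipocyte markers did not move together. Fabp4 rose (log2 fold change 2.84, adjusted p = 0.0027, edgeR), Plin4 fell (−3.57, adjusted p = 0.0041), and no other passed an adjusted p of 0.05. At this limit 14 of 14 chondrocyte, 5 of 8 tested skeletal muscle and 3 of 8 osteoblast markers were lower. Higher were 3 of 11 erythroid, 3 of 8 macrophage and 4 of 8 proliferation markers. Of the 14 neutrophil and 9 B lymphocyte markers, 0 passed. Among the 2-month libraries, replicate 2 had the highest share in each list of blood-forming and dividing cells, and neutrophil markers with 0 counts there were found only in replicate 1 (Cebpe and Ly6g) and replicate 3 (Elane). Counts of Xist, the RNA of the inactive X chromosome in females, were 88239 to 102417 per library at 2 months and 11 to 30 at 18 months, so age, the sex pattern and the cell markers cannot be told apart in any comparison below. In such bulk samples, fewer cells of a type and less RNA per cell cannot be told apart either.

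Assembly factors changed little against the breadth of change in the tissue. Counts were tested with edgeR's quasi-likelihood test, and genes with an adjusted p-value below 0.05 (Benjamini-Hochberg method, over all genes tested) are referred to as called. Of 20397 genes tested, 51.3% were called, 23.4% as higher and 27.9% as lower at 18 months. Of the 44 factors 43 could be tested, and 8 of these (18.6%) were called, 6 as higher (Coa5, Pet100, Lrpprc, Coa3, Cox17 and Sdhaf2) and 2 as lower (Ttc19 and Lyrm7). An unadjusted p below 0.05 was found for 14 of the 43, and for 12025 of the 20397 genes tested. The remaining gene, Pet117, did not pass the filter on low counts, with 2, 8 and 1 counts at 2 months and 26, 1 and 1 at 18 months. DESeq2 called 14 factors as higher and 3 as lower, 17 of 44, where it called 49.4% of all genes, so the gap to the background was smaller with that tool.

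The median log2 fold change of the 43 factors was 0.11, beside −0.021 over all genes tested. Their median change in either direction was 0.34 on the log2 scale, beside 1 for all genes. Changes smaller than 0.5 in either direction were found for 29 of the 43 factors (67.4%), against 29% of all genes. With the study's further limit of a log2 fold change above 1 or below −1, Coa5 and Pet100 remained as higher and Lyrm7 as lower. The same limits held for 14.9% of all genes on the higher side and 21.3% on the lower side.

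**Figure D1:**
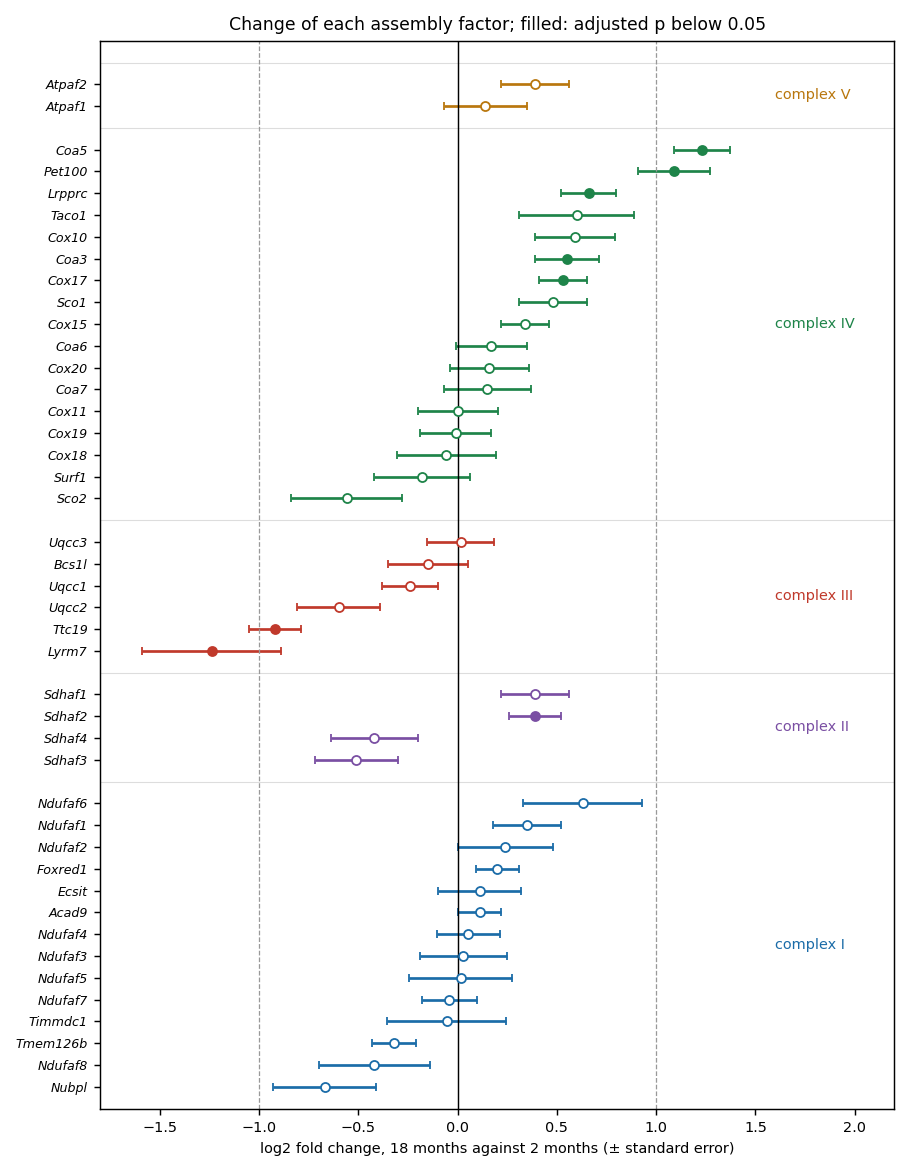
Each point is the log2 fold change of 1 assembly factor at 18 months against 2 months (x axis, edgeR), with its standard error, for the 43 factors tested, grouped by complex. Filled points had an adjusted p below 0.05; among them 5 of complex IV and 1 of complex II lie right of 0, 2 of complex III lie left of it, and no complex I or complex V factor is filled.

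Levels per transcript length are given as FPKM, fragments scaled by transcript length and by library total. The values summed to between 269587 and 293108 per library at 2 months and between 360503 and 387502 at 18 months, so a gene with a steady share of the sum has a higher FPKM at 18 months. On this scale 14 factors were higher in all 3 18-month libraries than in any 2-month library and 6 were lower in all 3, where 35.6% and 32.8% of all genes were so. After rescaling each library to the same sum (TPM) the counts were 2 and 14, where 23.4% and 43.4% of all genes were higher or lower without overlap. The 2 were Coa5 and Pet100, and both Ttc19 and Lyrm7 were among the 14.

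The 3 factors that were called in every one of 10 alternative analyses and with each library left out in turn were Coa5, Pet100 and Ttc19. Each has a protein-coding neighbour that starts close by on the opposite strand. The sequence between the paired starts is shown for these genes because it lies before the start of both genes of a pair. Sequences are from RefSeq promoters on GRCm38.p6, read towards the factor's own start, and capitals mark the motifs that were found. The motifs searched on both strands were GCGCANGCG (NRF1, a regulator of nuclear genes for mitochondria), CCGGAAG (ETS family, to which GABPA belongs), GGGCGG (Sp/KLF family), AAGATGGCG (YY1) and AAGGTCA (the estrogen-related receptors). Overlapping matches were counted separately.
Coa5 (with Unc50), chr1:37430104-37430138, minus strand, 35 bases: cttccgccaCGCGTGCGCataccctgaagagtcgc
Pet100 (with Xab2), chr8:3621317-3621547, plus strand, 231 bases: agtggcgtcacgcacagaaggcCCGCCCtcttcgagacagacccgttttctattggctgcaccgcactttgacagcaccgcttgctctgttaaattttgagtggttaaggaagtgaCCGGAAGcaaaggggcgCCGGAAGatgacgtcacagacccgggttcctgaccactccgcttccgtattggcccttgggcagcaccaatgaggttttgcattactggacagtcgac
Ttc19 (with Zswim7), chr11:62281376-62281472, plus strand, 97 bases: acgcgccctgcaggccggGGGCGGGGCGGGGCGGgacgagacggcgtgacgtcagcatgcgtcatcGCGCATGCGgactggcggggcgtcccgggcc

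The stretch of Coa5 held 1 NRF1 motif, that of Pet100 held 2 ETS motifs and 1 Sp/KLF motif, and that of Ttc19 held 1 NRF1 motif and 3 overlapping Sp/KLF motifs. Coa5 and Ttc19, which moved in opposite directions, thus both had an NRF1 motif. Over the 250 bases before the start, 39 of the 44 factors had a RefSeq window, 40 windows in all since Atpaf1 had 2. Of these, 12.5% held the NRF1 motif, 25% the ETS motif, 75% the Sp/KLF motif and 2.5% the estrogen-related receptor motif. The shares over all 32851 promoter windows were 5.16%, 6.91%, 32.7% and 4.08%. The YY1 motif was in 0 of the 40 windows and in 0.606% of all windows. No window of the same base composition was drawn for comparison, and these matches describe letters only.

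Paired starts were common among the factors. A protein-coding gene starting within 1000 bases on the opposite strand, facing away, was annotated in GENCODE M21 for 14 of the 44 factors (31.8%), against 10.7% of 15322 tested protein-coding genes, and pairs whose starts cross by under 200 bases were included. The neighbours of the 3 factors above differed in direction. Unc50, which starts 36 bases from Coa5, had a log2 fold change of −0.42 (adjusted p = 0.066, edgeR), opposite in sign to Coa5. Xab2, a DNA repair and splicing factor 232 bases from Pet100, rose with it (log2 fold change 0.65, adjusted p = 0.0038). Zswim7, a recombination factor 98 bases from Ttc19, fell as Ttc19 did (log2 fold change −0.97, adjusted p = 0.033). Chromosome 11, which holds 7.49% of the genes tested, had the most factors, 9 of 44 (20.5%). It was named after all chromosomes were seen, and the placement was not tested.

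Complex IV, cytochrome c oxidase, has the longest list of factors and held 5 of the 6 that were called as higher. Of its 17 tested factors 5 (29.4%) were called as higher, close to the 23.4% of all genes, and 0 as lower, against 27.9% of all genes. An unadjusted p below 0.05 was found for 8 of the 17, and for 12025 of all 20397 genes tested. The median log2 fold change of the 17 factors was 0.34, and with limma on TPM it was 0.028. The median of all genes was −0.37 with limma on TPM, over 25923 genes. It was 0.075 over 21539 genes with limma on log2(FPKM + 0.1), and −0.021 over 20397 genes with edgeR. The 5 called genes fall into different steps: Coa5, Pet100 and Coa3 handle subunits, Cox17 delivers copper and Lrpprc acts on mitochondrial mRNA.

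Coa5 (chr1:37417084-37430103, minus strand), which is needed at an early step of complex IV assembly, had the largest rise among the factors. Its FPKM was 7.03, 9.97 and 6.84 in the 2-month libraries and 18.9, 19.7 and 20.1 in the 18-month libraries. The lowest 18-month value was well above the highest 2-month value. Behind them stood 2007 to 3045 counts at 2 months and 6473 to 6705 at 18 months. The log2 fold change was 1.23 (SE 0.14, adjusted p = 0.002, edgeR), a 2.35-fold rise. Among the factors, Coa5 held place 8 by mean FPKM at 2 months and place 2 at 18 months.

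Pet100 (chr8:3621548-3625606, plus strand), an inner-membrane factor that acts on a complex IV subcomplex, was steady at 2 months with FPKM of 2.71, 2.76 and 2.75. At 18 months it was 7.39, 5.38 and 5.87, without overlap. The log2 fold change was 1.09 (SE 0.18, adjusted p = 0.0049, edgeR), or 2.13-fold. Counts were lower than for Coa5, at 267 to 291 and 607 to 890. Pet117, a factor for the same complex, was barely detected in any library, at FPKM of 0.0291, 0.185 and 0.0233 at 2 months and 0.552, 0.0192 and 0.0155 at 18 months. Its gene overlaps Kat14 on the same strand, so the few reads cannot be assigned with certainty.

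Coa3 binds newly made Cox1 protein, the core subunit of complex IV, and links its translation to assembly. It was the most abundant complex IV factor at 18 months. Its FPKM was 18.3, 18 and 14.1 at 2 months and 30.4, 23.5 and 24 at 18 months, without overlap, with a log2 fold change of 0.55 (SE 0.16, adjusted p = 0.03, edgeR). The call was lost under TPM (log2 fold change 0.19, adjusted p = 0.4) and without 2-month replicate 3 or any 1 of the 18-month libraries. Surf1, an assembly factor whose loss causes Leigh syndrome in humans, was the most abundant of complex IV at 2 months, at 22.8, 13.4 and 18.2, and did not pass the test (18.8, 14.8 and 17.7 at 18 months, log2 fold change −0.18, SE 0.24). The other subunit-handling factors, Cox18, Cox20 and Coa7, had log2 fold changes between −0.058 and 0.16 and overlapped between the ages.

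Copper reaches complex IV through Cox17, which hands it to Cox11 and to Sco1 and Sco2. Cox17 had an FPKM of 3.56, 3.71 and 3.42 at 2 months and 6, 5.61 and 4.7 at 18 months. Every 18-month value was higher, and the log2 fold change was 0.53 (SE 0.12, adjusted p = 0.013, edgeR). Under TPM the ages overlapped (log2 fold change 0.17, adjusted p = 0.44), and the call was also lost without 2-month replicate 3 or 18-month replicate 2. The gene overlaps Gm21987 on the same strand, so part of its reads could belong to that gene. Its recipient Cox11 stood at a log2 fold change of 0.0012 (SE 0.2), Cox19 at −0.01 (SE 0.18) and Coa6 at 0.17 (SE 0.18).

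The related copper chaperones Sco1 and Sco2 differed in sign, and neither passed the adjusted threshold in the main edgeR test. Sco1 was called as higher in 3 of 10 alternatives. Sco2 was called as lower under TPM, in 1 of the 9 alternatives that tested it. Sco1 FPKM was 1.97, 2.24 and 1.55 at 2 months and 3.1, 2.66 and 2.68 at 18 months (log2 fold change 0.48, SE 0.17, adjusted p = 0.061, edgeR). Sco2 FPKM was 0.808, 0.975 and 0.757, then 0.591, 0.63 and 0.584 (log2 fold change −0.56, SE 0.28, adjusted p = 0.14). Neither gene overlapped between the ages in FPKM, though Sco1 did under TPM. The FPKM ratio of Sco1 to Sco2 within a library was 2.43, 2.3 and 2.05 at 2 months and 5.24, 4.23 and 4.6 at 18 months, a ratio that does not depend on how libraries are scaled. Sco2 overlaps Tymp on the same strand, which could add reads to it.

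Heme A is made in sequence by Cox10, which makes heme O, and Cox15, which converts it. In FPKM both lay above their 2-month values in all 18-month libraries, while under TPM the ages overlapped. Both narrowly missed the adjusted threshold in the main edgeR test, and each was called in 5 of 10 alternatives. With limma on TPM the adjusted p was 0.43 for Cox10 and 0.91 for Cox15. Cox10 was at 1.58, 2.2 and 1.7, then 2.56, 3.4 and 2.73 FPKM (log2 fold change 0.59, SE 0.2, adjusted p = 0.054, edgeR). Cox15 was at 3.8, 4.6 and 4.27, then 5.22, 5.6 and 6.02 FPKM (log2 fold change 0.34, SE 0.12, adjusted p = 0.057). The ratio of Cox10 to Cox15 overlapped between the ages, at 0.398 to 0.479 and 0.454 to 0.607.

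Lrpprc, which stabilizes mitochondrial mRNAs as a partner of Slirp, rose with edgeR but was not called under TPM (log2 fold change 0.3, adjusted p = 0.29), where the ages overlapped. Its FPKM was 2.74, 3.53 and 2.65 at 2 months and 5.67, 4.32 and 4.85 at 18 months. The ages did not overlap in FPKM, and the log2 fold change was 0.66 (SE 0.14, adjusted p = 0.01, edgeR). Slirp was at 6.47, 3.62 and 4.88, then 5.5, 5.31 and 5.22 FPKM, with the 18-month values inside the range of the 2-month values (log2 fold change 0.0057, SE 0.25). The ratio of Lrpprc to Slirp was 0.423, 0.975 and 0.543 at 2 months and 1.03, 0.813 and 0.93 at 18 months. The high value of 2-month replicate 2 made these overlap. Taco1, the translational activator of Cox1, had a log2 fold change of 0.6 with a larger error (SE 0.29, adjusted p = 0.13).

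**Figure D2:**
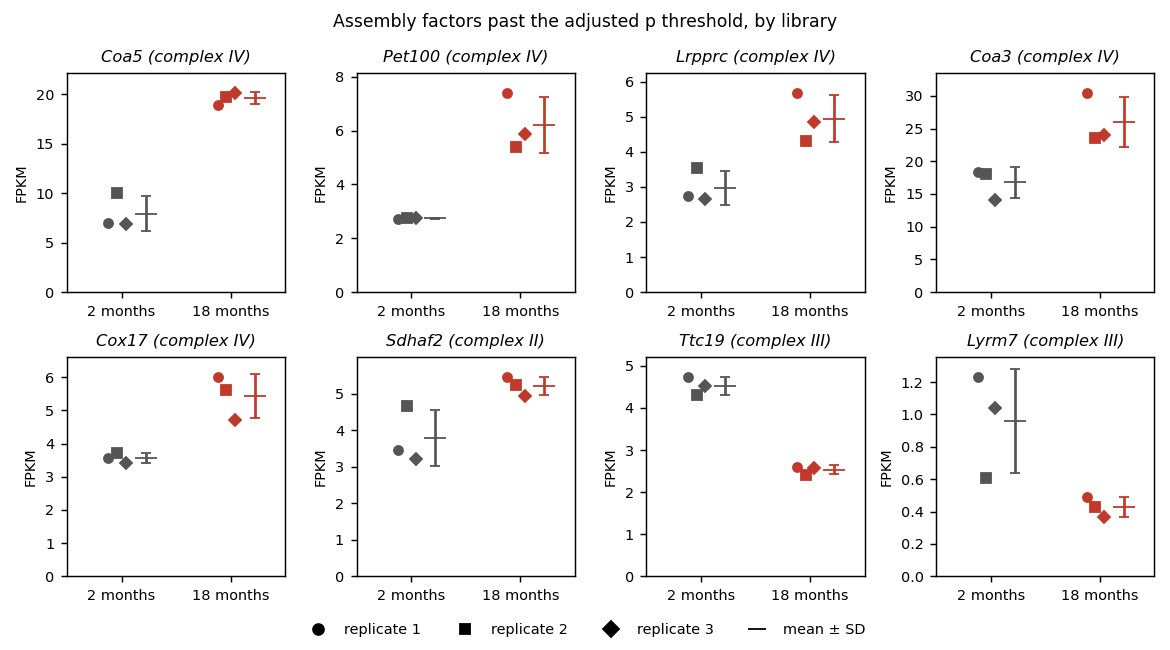
FPKM (y axis, from 0) of the 8 called factors in each library at 2 months (grey) and 18 months (red), with mean ± SD of 3 libraries per age. No 2-month FPKM overlaps an 18-month FPKM in any of the 8 panels. Of all genes tested, 35.6% were higher and 32.8% lower without overlap in FPKM. Under TPM the ages overlapped for Coa3, Cox17, Lrpprc and Sdhaf2. In 7 of the 8 panels the square of 2-month replicate 2 is the 2-month value nearest to the 18-month values. By distance to the 18-month mean, this library was nearest for 57.1% of all genes tested.

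Both factors called as lower belong to complex III. They are 2 of its 6 tested factors (33.3%), close to the 27.9% of all genes called as lower, and 0 were called as higher. The other 4 did not pass the test, and the median log2 fold change was −0.42 (−0.76 under TPM). Both called genes act on the Rieske protein Uqcrfs1, the iron-sulfur subunit that is put in last. Lyrm7 holds it in the matrix, Bcs1l moves it across the inner membrane, and Ttc19 clears fragments left after its insertion.

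Ttc19 (chr11:62281473-62328123, plus strand) was lower in all 18-month libraries. Its FPKM was 4.73, 4.31 and 4.51 at 2 months and 2.6, 2.41 and 2.58 at 18 months. The log2 fold change was −0.92 (SE 0.13, adjusted p = 0.003, edgeR), a level 0.53 times that at 2 months. It stood at place 17 among the factors by FPKM at 2 months and at place 35 at 18 months. Its gene overlaps Ncor1 on the opposite strand, as Pet100 overlaps Pcp2, Coa3 overlaps Cntd1 and Sdhaf2 overlaps Cpsf7.

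Lyrm7 (chr11:54826866-54860916, minus strand) was the factor with the largest fall and one of the lowest in level. Its FPKM was 1.23, 0.605 and 1.04, then 0.489, 0.429 and 0.369, on 182 to 342 counts and 121 to 169 counts. The ages did not overlap, but 2-month replicate 2 lay closer to the 18-month values than to the other 2-month values. The log2 fold change was −1.24 (SE 0.35, adjusted p = 0.029, edgeR), and the call was lost when any library other than 2-month replicate 2 was left out. Bcs1l, the third gene of this step, stood at −0.15 (SE 0.2).

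The cytochrome b factors of complex III were not called by edgeR with all libraries and its default filter. Uqcc2 was called as lower by DESeq2, under TPM and by edgeR with a minimum mean FPKM of 1, and Uqcc1 under TPM. Uqcc2, which with Uqcc1 binds newly made cytochrome b, was the most abundant of all 44 factors at 2 months, at 30.0, 21.1 and 24.2 FPKM. At 18 months it was 21.4, 16.4 and 15.2, overlapping the 2-month values, with a log2 fold change of −0.6 (SE 0.21, adjusted p = 0.061, edgeR). Uqcc1 stood at −0.24 (SE 0.14) and Uqcc3 at 0.015 (SE 0.17).

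Complex II factors lay on both sides of 0. Sdhaf2, which attaches flavin to the catalytic subunit Sdha, was at 3.47, 4.66 and 3.21 FPKM at 2 months and 5.45, 5.24 and 4.94 at 18 months. It was called at the edge of the threshold (log2 fold change 0.39, SE 0.13, adjusted p = 0.049, edgeR), and 8 of the 10 alternatives did not call it. Sdhaf1, which helps to insert iron-sulfur clusters into Sdhb, had the same log2 fold change with a larger error (0.39, SE 0.17, adjusted p = 0.1). Sdhaf4, which takes up flavin-bearing Sdha, was the most abundant of the 4, with FPKM of 13.8, 9.98 and 12.5 and then 10.3, 10.5 and 7.98, overlapping between the ages (log2 fold change −0.42, SE 0.22). Sdhaf3, a further iron-sulfur factor, was at 0.998, 1.04 and 1.05 FPKM, then 0.742, 0.89 and 0.645, without overlap (log2 fold change −0.51, SE 0.21, adjusted p = 0.088).

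None of the 14 complex I factors passed the adjusted threshold with edgeR on all libraries and genes past its filter. Against 12025 of all 20397 genes tested, 2 of the 14 had an unadjusted p below 0.05 (Tmem126b and Nubpl). Both were called as lower under TPM and by edgeR with a minimum mean FPKM of 1, and Tmem126b also without 2-month replicate 2. Ndufaf8 was called as lower under TPM. As higher, DESeq2 called Foxred1 and Ndufaf1. Limma on FPKM called Ndufaf1 as higher with a pseudocount of 0.1 and Ndufaf6 with a pseudocount of 1. The log2 fold changes of the 14 lay between −0.67 and 0.63 with a median of 0.042, and 12 of 14 were smaller than 0.5 in either direction. The highest was Ndufaf6, an early factor, with FPKM of 2.14, 1.62 and 1.3 at 2 months and 2.94, 3.24 and 2.2 at 18 months (SE 0.3, adjusted p = 0.12). The lowest was Nubpl, which delivers iron-sulfur clusters, with FPKM of 1.56, 1.1 and 1 and then 0.718, 0.866 and 0.855 (SE 0.26, adjusted p = 0.077). Neither gene overlapped between the ages in FPKM, though Ndufaf6 did under TPM. The most abundant at 2 months, Ndufaf8, was at 11.5, 6.64 and 7.34 FPKM and then 7.51, 6.4 and 6.45, with 2-month replicate 1 above all other libraries (log2 fold change −0.42, SE 0.28, and −0.1 without that library).

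Members of the core assembly intermediate of complex I, Ndufaf1, Acad9, Ecsit, Tmem126b and Timmdc1, lay between −0.32 and 0.35. Timmdc1 had the widest spread, with FPKM of 9.74, 4.52 and 5.98 in the 18-month libraries around 5.5, 7.07 and 7.25 at 2 months. The factors that modify complex I subunits, Ndufaf5 and Ndufaf7, stood at 0.016 and −0.042. Acad9 overlaps Gm43079 on the same strand.

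The chaperones of the catalytic head of complex V, Atpaf1 and Atpaf2, were not called by edgeR, and DESeq2 called Atpaf2 as higher (log2 fold change 0.47, adjusted p = 0.019). Atpaf2 was at 4.48, 6.65 and 6.01 FPKM at 2 months and 7.47, 7.68 and 8.49 at 18 months, without overlap (log2 fold change 0.39, SE 0.17, adjusted p = 0.1, edgeR). Atpaf1 was at 2.47, 1.83 and 1.78, then 2.21, 2.49 and 2.4, overlapping (log2 fold change 0.14, SE 0.21). The ratio of Atpaf1 to Atpaf2 was 0.275 to 0.552 and 0.283 to 0.324.

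The subunits that these factors assemble were more often called as higher, though no test between the lists was made. Of 76 nuclear subunits of the 5 complexes, a list that also holds the ATP synthase inhibitor Atpif1, 57 (75%) were called as higher and 0 as lower, with a median log2 fold change of 0.68. Under TPM rescaling the counts were 31 and 2, and the median 0.32, where that of the factors was −0.25. Without 2-month replicate 2, 57 subunits were called as higher and 0 as lower. The subunits were also more abundant, with a median FPKM over genes of 21.4 at 2 months and 33.2 at 18 months, beside 3.79 and 4.64 for the factors.

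The contrast between factors and subunits was present in each complex. In complex I, 22 of 36 subunits were called as higher (median log2 fold change 0.47) and 0 of 14 factors (0.042). In complex II it was 3 of 4 subunits (0.85) and 1 of 4 factors (−0.015). In complex III, 8 of 9 subunits were called as higher (0.63) while 0 of 6 factors were (−0.42). The subunit of complex III with the smallest p, Cyc1, which encodes cytochrome c1, went from 17, 22.7 and 17.2 FPKM to 40.2, 37.1 and 37.2. In complex IV, 10 of 11 subunits were called as higher (0.76) and 5 of 17 factors (0.34), and in complex V, 14 of 16 (0.77) and 0 of 2 (0.26). The 16 of complex V include the inhibitor Atpif1, which had the highest log2 fold change of the subunit list (2.05).

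**Figure D3:**
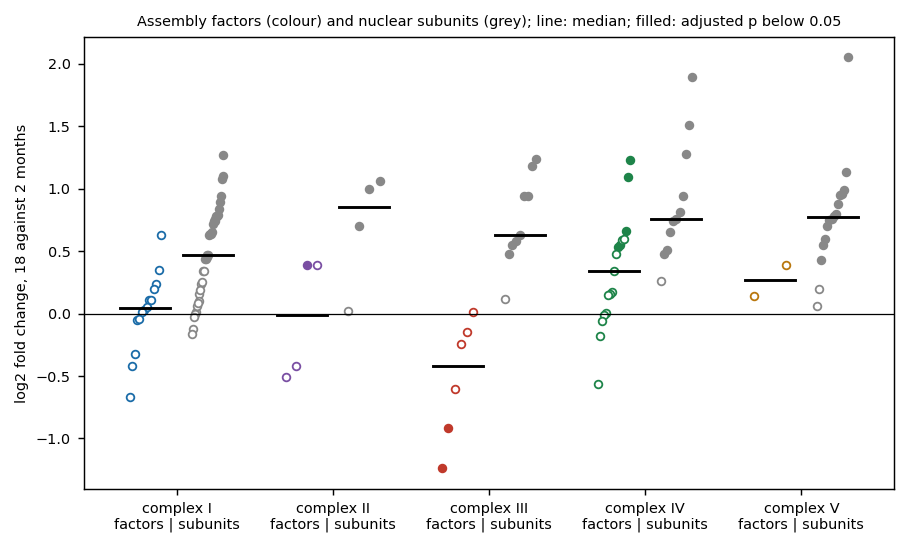
Log2 fold change at 18 months against 2 months (y axis) of each tested factor (colour) and nuclear subunit (grey) of complexes I to V, with the median of each list as a black line and filled points for an adjusted p below 0.05. In every complex the median of the subunits lies above that of the factors, and complex III has the only factor median clearly below 0.

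A share computed within each library, the summed FPKM of the factors as a percent of the summed FPKM of the subunits, does not depend on how libraries are scaled. For complex I it was 8.63%, 8.48% and 8.42% at 2 months and 7.13%, 5.85% and 5.77% at 18 months. For complex III it was 22%, 17.1% and 20.7%, then 11.5%, 9.65% and 9.25%. The sum of the complex III factors itself overlapped between the ages, at 60.5, 47 and 54.6 FPKM and then 51.4, 42 and 39.8 FPKM, while that of the subunits was higher in every 18-month library (mean 271 and 437 FPKM).

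For complex IV the share was 18.8%, 18.1% and 18.7% at 2 months and 15.8%, 13.3% and 13.7% at 18 months, with both sums higher at 18 months (mean 90.1 and 126 FPKM for factors, 486 and 883 FPKM for subunits). For complex II it was 21.8%, 15.2% and 20.7%, then 12%, 12% and 9.83%, and for complex V 1.37%, 1.49% and 1.62%, then 0.976%, 1.05% and 1.12%. In all 5 complexes every 18-month library lay below every 2-month library. A two-sided exact permutation test of 3 libraries against 3 gave p = 0.1 for each complex. That is the smallest value this design allows, and any share without overlap between the ages gives it. The test therefore could not fall below the limit used for called genes, and no conclusion is drawn from it. The shares of the 5 complexes come from the same libraries, so they do not count as separate evidence. A sum is led by its most abundant genes, such as Uqcc2 for complex III and Surf1 and Coa3 for complex IV. The subunit sum of complex V includes the inhibitor Atpif1, with a mean of 23.1 FPKM at 2 months and 100 FPKM at 18 months.

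**Figure D4:**
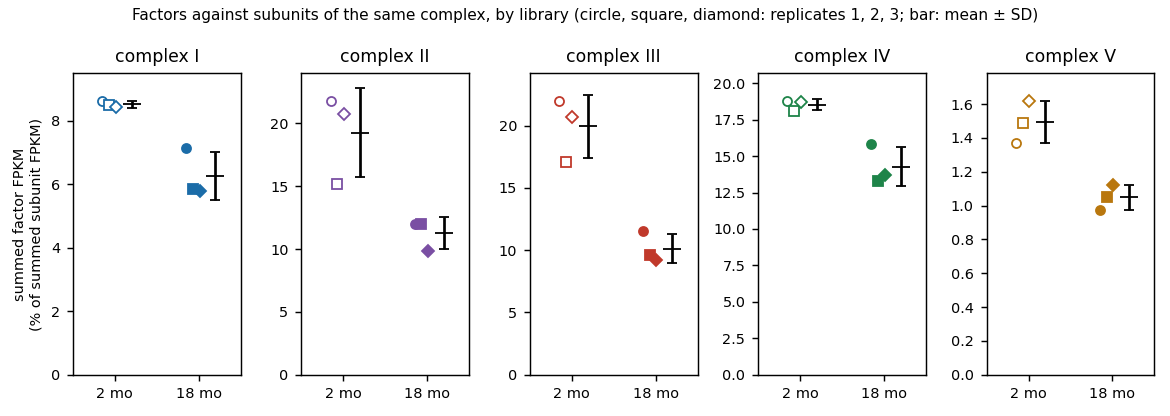
Summed FPKM of the assembly factors as a percent of the summed FPKM of the nuclear subunits of the same complex (y axis, from 0) in each library, with mean ± SD of 3 libraries per age. The 18-month libraries (filled) lie below the 2-month libraries (open) in all 5 complexes, for complex III at 10.1% ± 1.2 against 19.9% ± 2.54.

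Other genes of assembly were closer to the factors than to the subunits in their median. Of 19 further assembly genes, 7 were called as higher and 1 as lower, with a median log2 fold change of 0.31 (3 higher, 5 lower and −0.046 under TPM). Hccs, which attaches heme to cytochrome c, had the smallest p and went from 2.31, 2.86 and 2.4 FPKM to 5.03, 4.87 and 5.4 (log2 fold change 0.94, SE 0.11, adjusted p = 0.0022, edgeR). The 1 that fell, named after its value was seen, was Higd1a, a hypoxia-induced gene, from 71.2, 27.3 and 49.3 to 10.9, 7.43 and 7.54 FPKM (log2 fold change −2.61, SE 0.41, adjusted p = 0.0046).

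Of 15 partner genes, which supply iron-sulfur clusters, copper and disulfide bonds to the chain, 11 were called as higher and 1 as lower, with a median of 0.84 (7, 1 and 0.5 under TPM). Isca2, of the mitochondrial iron-sulfur pathway, had the smallest p, at 10.3, 11.4 and 8.17 FPKM and then 21.3, 24.4 and 23.2 (log2 fold change 1.13, SE 0.14, adjusted p = 0.0023). The factors that hand iron-sulfur clusters to a complex, Nubpl, Sdhaf1 and Sdhaf3, were not called by edgeR with all libraries and its default filter. Each was called in at least 1 alternative, Sdhaf1 as higher and Nubpl and Sdhaf3 as lower. The 1 partner that fell was the copper importer Slc31a1, named after its value was seen (log2 fold change −0.47, SE 0.14, adjusted p = 0.032). Cox17, which receives copper in the same route, rose as given above.

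Of the 2-month libraries, replicate 2 had the highest shares not only of neutrophil and erythroid but also of chondrocyte (6.46% against 3.83% and 4.77%) and osteoblast markers. In 7 of the 8 called factors, 2-month replicate 2 had the 2-month FPKM nearest to the 18-month mean. It was nearest in 26 of the 43 tested factors (60.5%), a share like the 57.1% of all genes tested. Without this library 9 factors were called as higher and 6 as lower, and the 8 called with it were among these 15. In that fit 60.3% of all genes tested were called, against 51.3% with all libraries. The lower calls then also held Uqcc2, Uqcc1, Sdhaf4 and Tmem126b, and the higher calls Cox10, Sco1 and Taco1. Sdhaf2 and Lyrm7, called with all libraries, were lost when any other library was left out. The part of blood-forming cells in the change of any factor was not tested.

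**Figure D5:**
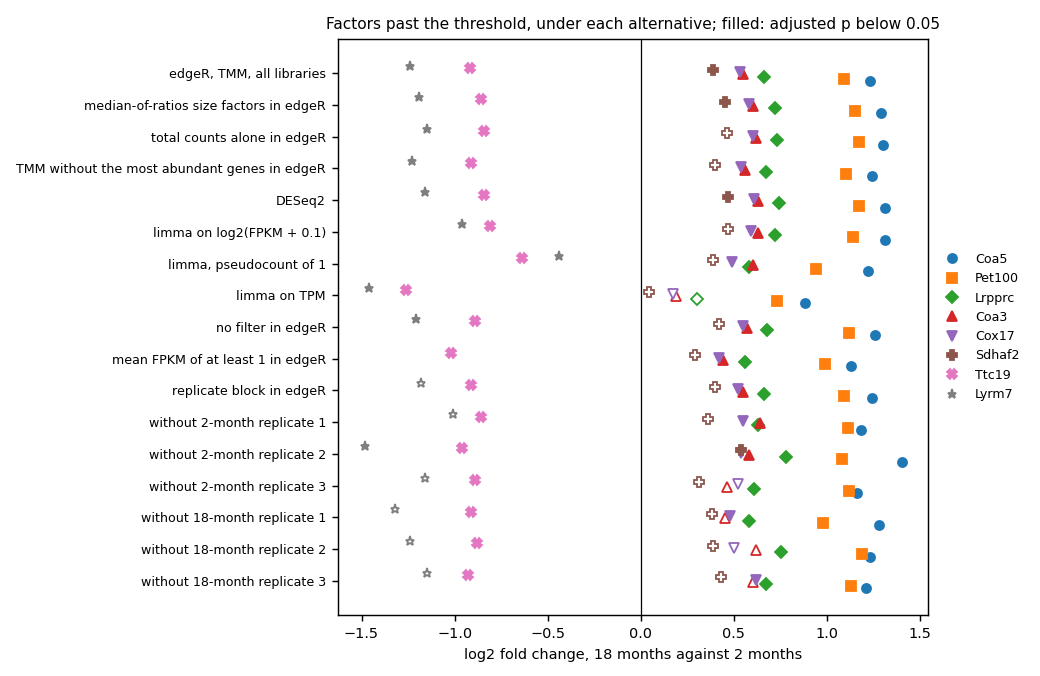
Log2 fold change (x axis) of the 8 called factors under each alternative analysis and with each library left out (rows), filled where the adjusted p was below 0.05. Coa5, Pet100 and Ttc19 are filled in all rows, whereas Sdhaf2 is filled in 4 of 17 and Lyrm7 has no point in the row for a mean FPKM of at least 1, which it did not reach.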

How the data were processed

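The data are 3 RNA-seq libraries of articular cartilage from 2-month-old and 3 from 18-month-old wildtype mice. Per the labels, RNA was extracted with Trizol, selected for poly(A), made into strand-marked (dUTP) libraries with molecular identifiers and sequenced from both ends. The submitters' processing notes name cutadapt 1.9, HISAT2 2.0.4, UMI-tools, StringTie 1.3.4d, DESeq2 and edgeR. The genome build, the annotation and the strand setting of the counting are not given in the sources used here, so reads of a gene and of one overlapping it on the other strand may not be told apart. Deposited values were raw counts (whole numbers, not normalized) and FPKM, scaled by the authors by transcript length and library total. Of 33865 genes found by identifier in GENCODE M21 (GRCm38), 91.3% had the same coordinates.

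The test was edgeR 4.0.16 (R 4.3.3, TMM, filterByExpr, quasi-likelihood, no replicate block), with Benjamini-Hochberg adjustment over 20397 genes. Alternatives were median-of-ratios size factors, total counts, TMM without the 100 most abundant genes, DESeq2 1.42.0, limma 3.58.1 on log2(FPKM + 0.1), with a pseudocount of 1 and on TPM, a minimum mean FPKM of 1, no filter, a replicate block and leaving out each library. Scripts were tested on simulated data. Python 3.11.15, scipy 1.17.1 and matplotlib 3.10.9 were used for the permutation test and figures.

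The members, the other lists and the tests were chosen with earlier results of these data known. Genes are named if called, if highest in mean FPKM or highest or lowest in log2 fold change within a complex, as 1 of the pairs Sco1 and Sco2, Cox10 and Cox15, Lrpprc and Slirp, Atpaf1 and Atpaf2, or by the smallest p of another list; further genes were named after their values were seen. The smallest p of the subunits was named for complex III only. Coa1 of the assembly list was not used here. No library pair within an age was as alike as counting noise alone would make it, and all were kept as separate samples.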

Additional observations from a re-analysis of the deposited data

How the results depend on the processing

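Pet117 had too few counts to pass the filter of the main test, and Lyrm7 had the fewest counts of the called factors. Coa5, Pet100 and Ttc19 were called in all 10 alternatives and 6 fits without 1 library. Lrpprc was called in 9 of 10 and 6 of 6, and Coa3 and Cox17 in 9 of 10, each lost with TPM, and in 2 and 4 of 6. Lyrm7 was called in 8 of the 9 alternatives that tested it, lost under the replicate block, and in 1 of 6. The number of factors called as higher, 6, became 14 in DESeq2, 10 with a pseudocount of 1 and 2 with TPM, and 3 to 9 without 1 library (lowest without 2-month replicate 3 or 18-month replicate 2, highest without 2-month replicate 2). The number called as lower, 2, became 10 with TPM, 4 with a minimum mean FPKM of 1 and 1 under the replicate block, and 1 to 6 without 1 library. Of all genes tested, 49.4% were called in DESeq2, 55.5% with a pseudocount of 1 and 45.6% with TPM. These shares were 59% with a minimum mean FPKM of 1, 38.5% under the replicate block and 34.1% to 60.3% without 1 library. The number of factors without overlap, 14 higher and 6 lower in FPKM, was 2 and 14 in TPM. With the replicate block 5 factors were called as higher and 7856 genes in all, against 10457 without it. Deviations of libraries that share a replicate number correlated at 0.047, 0.054 and −0.038, which gave no sign that the numbers pair the libraries. With 3 libraries per age such a check cannot exclude pairing. The best correlation of 18-month replicate 1 was with 2-month replicate 3 (0.07).

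With limma on TPM the median of all genes was −0.37, against 0.075 with limma on log2(FPKM + 0.1). Median log2 fold changes under TPM were −0.25 over all factors and −0.3, −0.36, −0.76, 0.028 and −0.076 over those of complexes I to V in turn. With a minimum mean FPKM of 1 they were 0.021, then −0.064, 0.28, −0.35, 0.3 and 0.16. Without 1 library at a time they ranged from 0.034 to 0.17 over all factors, from −0.052 to 0.12 for complex I, −0.1 to 0.055 for II, −0.52 to −0.3 for III, 0.28 to 0.41 for IV and 0.23 to 0.33 for V. The complex II median, close to 0, was 0.036 with median-of-ratios size factors, 0.061 with total counts, 0.064 in DESeq2, 0.067 and 0.073 in limma on FPKM with pseudocounts of 0.1 and 1, and 0.012 with no filter. The complex IV median was 0.39, 0.4, 0.48, 0.37, 0.28 and 0.43 in the same order, and that of complex V was 0.35 with a pseudocount of 0.1. The causes were not tested. Among single genes, TPM reversed Atpaf1 (−0.2), Cox15 (−0.024), Slirp (−0.3) and Uqcc3 (−0.33), a minimum mean FPKM of 1 reversed Slirp (−0.1) and Uqcc3 (−0.09), and leaving out 1 library gave −0.18 to 0.26 for Slirp and −0.081 to 0.1 for Uqcc3, none of them called.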
